A study of Micropterus salmoides with 45 samples.

Results

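Livers of the largemouth bass, Micropterus salmoides, a fish of fresh water, were compared between severe and moderate hypoxia after 8 h. The comparison rests on 6 libraries out of the 45 in the series: the 3 titled SHG at 8 h, from water at 1.2 ± 0.2 mg/L dissolved oxygen, and the 3 titled MHG at 8 h, from water at 3.0 ± 0.2 mg/L. They were chosen by their titles alone, and 2656 of the 2660 genes in the deposited tables passed a filter on level and entered the test. Libraries of both levels at 0, 4, 12 and 24 h (24 in all) and 3 control libraries at 8 h, from water at 7 mg/L, are set beside them. All fish were 6 months old, were kept at 20 °C in tanks of 30 with 3 tanks for each oxygen level, and had no food during the trial. Nitrogen was used to lower the oxygen, time was counted from when the wanted level was reached, and 5 fish were taken from each tank. No allele, transgene or drug distinguishes the groups.

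Vertebrate cells respond to low oxygen largely through hypoxia-inducible factors, transcription factors whose alpha subunits are degraded while oxygen is plentiful and accumulate when it is scarce. Their targets include glucose transporters, glycolytic enzymes and regulators of red cell and vessel formation. The liver holds the glycogen and much of the lipid that fish draw on when respiration slows, and the study addressed how acute hypoxia alters the use of both. The genes measured here carry only the identifiers of a de novo Trinity assembly (component and gene number, such as c78658_g1), and 0 of the 2660 identifiers matched the RefSeq gene table of the species. Lists of glycolytic, lipid, hypoxia-response and cell type marker genes therefore could not be applied. The label "liver" could not be checked against marker genes for the same reason, and no sequence of these genes was at hand.

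Depth was even. The 3 severe and 3 moderate libraries at 8 h held between 30882606 and 32976112 reads, and all 45 between 29986862 and 33433838. The listed genes took 13.1%, 12.5% and 14.0% of the reads in the severe libraries and 12.1%, 11.3% and 12.6% in the moderate ones, and the median gene had 439 reads in a library. The rule by which the authors listed genes is not given in the sources used here, so shares below describe this list and not the whole liver transcriptome. Among the 2660 genes, 17, 16 and 26 were at 0 in the severe libraries, 58, 86 and 77 in the moderate libraries and 45, 47 and 24 in the control libraries at 8 h. The table of control replicate 2 at 8 h ended after 2527 genes, and its other 133 values were left out.

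Severe hypoxia at 8 h differed from moderate hypoxia mainly by genes that stood higher. Of 2656 genes tested, 363 (13.7%) were called different, which here means a Benjamini-Hochberg adjusted p under 0.05 in limma: 247 (9.3%) were higher and 116 (4.37%) were lower in severe hypoxia. The test ran on log2(RPKM + 1), where RPKM is a read count divided by gene length and sequencing depth, and all log2 differences below are on this scale, which understates the changes of low genes. Quantile normalization of the same values gave 234 higher and 187 lower genes, so the excess of rises over falls depended on the scaling. At an unadjusted p under 0.05, 710 genes differed. In bulk tissue, fewer cells of a type and less RNA per cell cannot be told apart. Tank and oxygen level cannot be told apart either, since each level had tanks of its own. Nothing in the labels ties a library to a tank or a fish, so p-values here reflect only the scatter among these samples, which may be technical.

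On the log2(RPKM + 1) scale the rises were larger than the falls. The added 1 limits how far a low gene can fall but not how far it can rise. The 2-fold, 4-fold and 8-fold limits here apply to this scale and understate changes of low genes in RPKM. The 247 higher genes had a median difference of 1.56 (quartiles 1.15 and 2.13), against a median of -0.04 over all genes tested, and 211 of them (7.94% of the genes tested) were at least 2-fold higher, 71 at least 4-fold and 18 at least 8-fold. The 116 lower genes had a median difference of -1.07 (quartiles -1.33 and -0.91), 68 of them (2.56% of the genes tested) were at least 2-fold lower and 4 at least 4-fold. Between the 3 severe and the 3 moderate libraries there was no overlap for 223 of the 247 higher genes and for 106 of the 116 lower genes. Over all genes tested, severe libraries lay entirely above moderate ones for 375 genes (14.1%) and entirely below for 379 (14.3%), so separation by itself was about equally frequent in both directions.

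**Figure D1:**
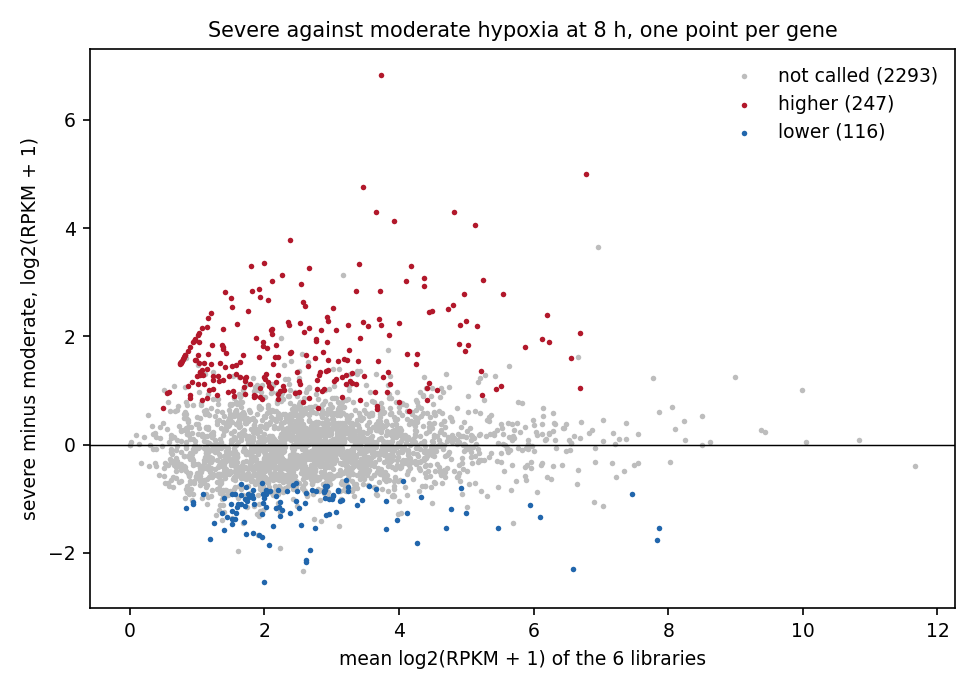
Each point is 1 of 2656 genes, placed by its mean log2(RPKM + 1) over the 6 libraries at 8 h (x axis) and by severe minus moderate on the same scale (y axis); red marks the 247 genes called higher, blue the 116 called lower, grey the rest. The red points reach up to 6.83, while the blue points reach down to -2.55.

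The higher genes tended to be scarce in moderate hypoxia. Their mean level had a median of 8.58 RPKM over the genes in severe hypoxia, 1.84 RPKM in moderate hypoxia and 1.61 RPKM in control. In moderate hypoxia 87 of the 247 (35.2%, against 7.68% of all genes tested) averaged under 1 RPKM. In severe hypoxia 62 of the 247 (25.1%, against 14.6%) averaged over 20 RPKM. The lower genes had medians of 2.26 RPKM in severe hypoxia, 6.68 RPKM in moderate hypoxia and 7.20 RPKM in control. Over all genes tested the medians were 5.67, 5.58 and 5.45 RPKM in severe hypoxia, moderate hypoxia and control. The higher genes together made up 13.2 ± 2.01% of the summed RPKM of the listed genes in severe hypoxia and 2.99 ± 0.525% in moderate hypoxia (SD, n = 3 each). The lower genes made up 2.07 ± 0.215% in severe hypoxia and 6.07 ± 0.295% in moderate hypoxia (SD, n = 3 each). Gene length hardly separated the sets: its median was 2305 bp for the higher genes, 2666.5 bp for the lower genes and 2591.5 bp for all genes tested.

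By a rule that takes, among called genes whose libraries do not overlap and whose higher group averages at least 5 RPKM, the leading rises and falls, 2 genes are named in each direction. The largest rise was that of c84833_g1 (3872 bp). It stood at 723, 251 and 14.9 RPKM in the severe libraries, 0.951, 0 and 0 RPKM in the moderate libraries and 0.410, 0.0809 and 0.496 RPKM in the control libraries (replicates 1 to 3). Every severe library was above every moderate and control library, yet the severe libraries themselves spread widely, with replicate 1 the highest and replicate 3 the lowest. The log2 difference from moderate hypoxia was 6.83 (SE 0.91, limma adjusted p = 7.55e-07). This SE and p rest on a spread pooled over all 45 libraries, in most of which the gene was scarce. They do not measure the wide severe spread at 8 h by itself. The difference was 8.42 without severe replicate 3 and 5.66 without severe replicate 1. It stayed called in each of the 6 fits that left out 1 of the compared libraries.

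The next largest rise, that of c78658_g1 (3128 bp), was uniform. Its level was 612, 586 and 655 RPKM in the severe libraries, 16.8, 14.3 and 25.9 RPKM in the moderate libraries and 69.1, 55.6 and 25.4 RPKM in the control libraries. The means were 618 ± 34.9 RPKM in severe hypoxia, 19.0 ± 6.08 RPKM in moderate hypoxia and 50.0 ± 22.4 RPKM in control (SD, n = 3). The severe libraries lay within a narrow band, far above the other 6. The moderate and control libraries overlapped only through moderate replicate 3 and control replicate 3. The log2 difference between severe and moderate hypoxia was 4.99 (SE 0.43, limma adjusted p = 2.91e-10), and leaving out any 1 of the 6 libraries kept it between 4.82 and 5.23. The gene already differed at 0 h, with 92.2, 136 and 97.4 RPKM in severe and 6.47, 19.9 and 20.3 RPKM in moderate hypoxia. That difference was 2.85 (SE 0.43, limma adjusted p = 0.000291). The one at 8 h was larger by 2.14 (SE 0.61, limma adjusted p = 0.036). The gene was also called higher at 4 h (3.12, limma adjusted p = 9.12e-06) and at 12 h (3.51, limma adjusted p = 5.28e-07), but not at 24 h.

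Among the falls, c90267_g12 (602 bp) was the largest. It had 0.967, 0.201 and 0.890 RPKM in the severe libraries, 7.48, 18.2 and 4.45 RPKM in the moderate libraries and 8.22, 21.4 and 10.4 RPKM in the control libraries. All severe values were below 1 RPKM and below every moderate and control value. The log2 difference from moderate hypoxia was -2.55 (SE 0.64, limma adjusted p = 0.00473). Without moderate replicate 2, the library with the highest moderate value, it was -2.04 and no longer called (limma adjusted p = 0.0628). The gene was also called lower at 4 h (-2.49, limma adjusted p = 0.0174) and at 12 h (-1.70, limma adjusted p = 0.0317), but not at 24 h.

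The other named fall was that of c67122_g1, a short assembled gene of 263 bp that was not called at 0, 4, 12 or 24 h. At 8 h it stood at 38.4, 26.3 and 74.0 RPKM in the severe libraries and 300, 134 and 235 RPKM in the moderate ones. In the control libraries it had 180, 51.2 and 110 RPKM. The severe and moderate libraries did not overlap, but control replicate 2 lay inside the severe range. The log2 difference from moderate hypoxia was -2.30 (SE 0.69, limma adjusted p = 0.0219). This call was lost without moderate replicate 1 (-2.05, adjusted p = 0.0897), without moderate replicate 3 (-2.22, adjusted p = 0.0524), without severe replicate 1 (-2.23, adjusted p = 0.0606) and without severe replicate 2 (-1.97, adjusted p = 0.11) in limma.

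**Figure D2:**
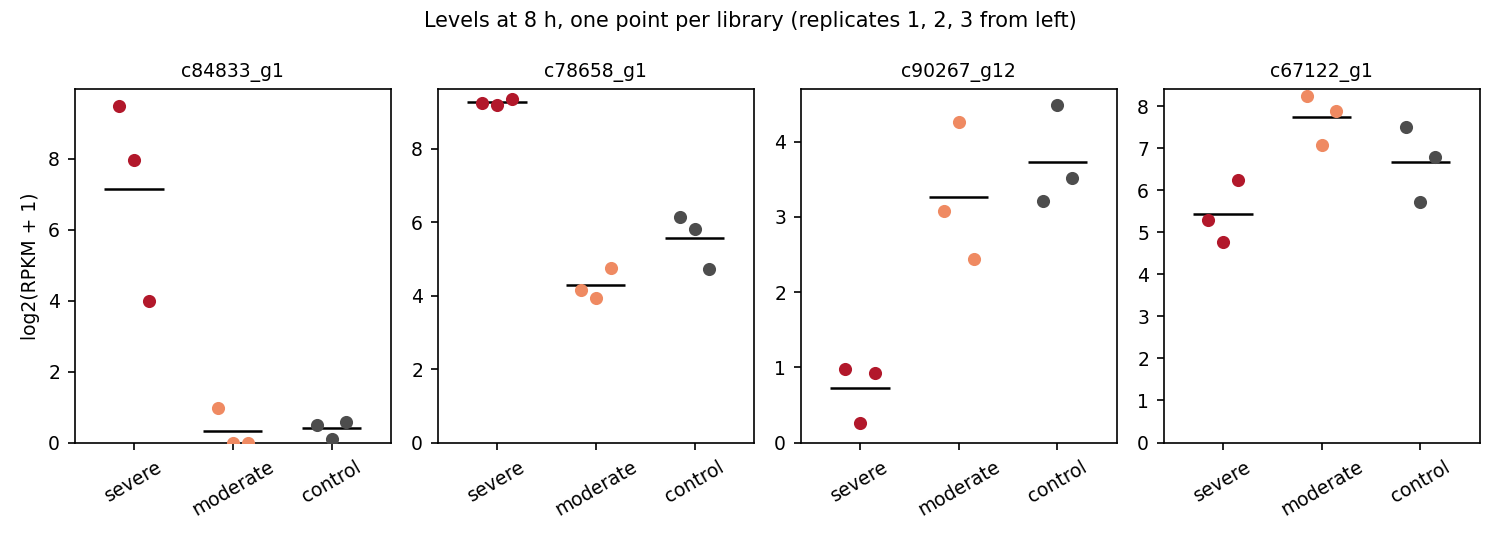
Levels of the 4 named genes at 8 h as log2(RPKM + 1), 1 point per library (replicates 1 to 3 from the left), for severe hypoxia, moderate hypoxia and control; the bar is the mean of the 3 libraries. The severe points of c84833_g1 spread from 14.9 to 723 RPKM, while those of c78658_g1 lie between 586 and 655 RPKM.

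Spread among the severe libraries was wider in the higher set than over all genes, though few genes spread as c84833_g1 did. For 37 of the 247 higher genes (15%, against 8.09% of all genes tested) the highest severe library had at least 4 times the RPKM of the lowest, and for 59 (23.9%, against 34.2%) it had less than 1.5 times. Among the 37 variable genes, severe replicate 1 was the highest in 24, replicate 3 in 11 and replicate 2 in 2. The SD between libraries on the log2 scale had a median of 0.43 in severe and 0.37 in moderate hypoxia for the higher genes, and of 0.27 and 0.33 for the lower genes. Over all genes tested it was 0.32 in severe and 0.37 in moderate hypoxia.

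Averaged over each set, the libraries stood clearly apart, as the calls require. The 247 higher genes averaged 3.56, 3.43 and 3.33 in the severe libraries, 1.81, 1.50 and 1.79 in the moderate libraries and 1.65, 1.50 and 1.67 in the control libraries, as mean log2(RPKM + 1). The 116 lower genes averaged 2.25, 2.02 and 2.05 in the severe libraries, 3.38, 3.36 and 3.06 in the moderate libraries and 3.30, 3.23 and 3.22 in the control libraries. Moderate replicate 3 was the moderate library nearest to severe hypoxia in the lower set. Set against the other 2 moderate libraries, it lay a median of 25.6% of the way toward the severe mean, and past halfway for 28 of the 116 genes. Severe replicate 1 lay a median of 19.9% of the way toward the moderate mean in the lower set, past halfway for 16 genes. In the higher set, severe replicate 3 was past halfway toward the moderate mean for 44 of 247 genes, the most of any of the 6 libraries. No 2 of these libraries were copies of each other: the chi-square per gene of the recovered reads was 98.5 to 245 within severe hypoxia, 122 to 256 within moderate hypoxia and 264 to 375 between the levels.

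How many genes were called depended on single libraries. Leaving out moderate replicate 2 left 226 calls (164 higher and 62 lower), and leaving out severe replicate 2 left 237 (181 higher and 56 lower). Without moderate replicate 1, 65 genes were called lower. In all 6 such fits, 126 of the 247 higher and 35 of the 116 lower genes were called. With the spread estimated from the 6 compared libraries alone, 119 genes were called higher and 42 lower.

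Some calls may stand for the same gene. The 363 called genes came from 327 Trinity components, and 27 components held 2 or more called genes, 63 genes in all. In 2 of these components called genes stood in both directions. Genes of 1 component can be parts or near copies of 1 gene, between which reads can be split, and how the authors assigned such reads is not given in the sources used here.

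At the lower end of the higher set, 24 genes had no read in any moderate library at 8 h, of 30 such genes among all tested. With 3 reads per library taken as the most that a count of 0 allows, which covers counting error only, their severe means were at least 6.39-fold to at least 69.8-fold higher than in moderate hypoxia (median of the bounds 17.2). With these 24 genes at that bound on the log2 scale, the median difference of the higher set was 1.51.

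Of these, 22 belong to a set of 23 genes, picked after their values were seen and so not tested as a set, that had reads in all 3 severe libraries at 8 h and in at most 4 of the 39 libraries other than severe and control at 8 h. Summed over the 23 genes, the level was 68.9, 49.1 and 58.6 RPKM in the severe libraries, 0.741, 0 and 0 RPKM in the moderate libraries and 0, 0 and 36.6 RPKM in the control libraries at 8 h. Control replicate 3 thus had reads in all 23 genes, as the severe libraries had, while the other 2 control libraries had none. At 4 h severe replicate 1 held 28.8 RPKM of them in 14 genes and severe replicate 2 held 1.44 RPKM. In all, 7 of the 39 libraries had any read, moderate replicate 1 at 8 h among them. The genes were short, with a median of 520 bp, and had 14 to 228 reads (1.15 to 6.88 RPKM) in a severe library. All 23 were called higher. This largely follows from the pick, since the 39 include the moderate libraries at 8 h, and is no separate result. With at least 1.15 RPKM in each severe library, the genes also passed the filter on level through these libraries alone. The same limit holds where their differences at 8 h and at other times are compared below. The 39 also include both levels at those times. Without these 23 genes, 224 were called higher. Whether these reads follow oxygen or something that control replicate 3 shares with the severe libraries at 8 h was not tested.

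**Figure D3:**
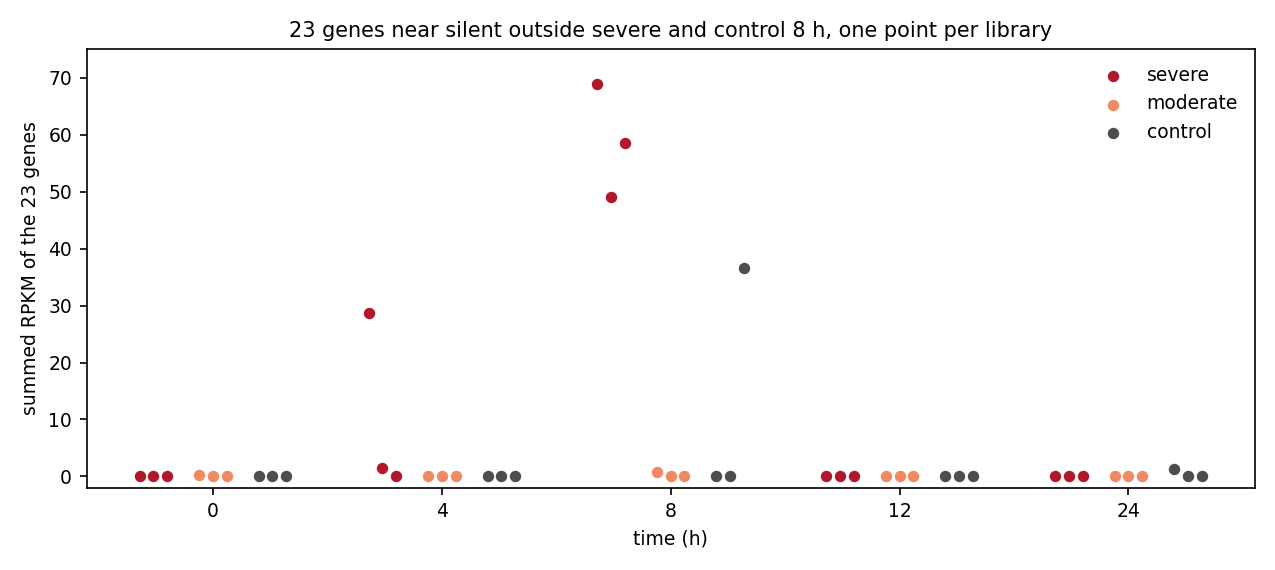
Summed RPKM of the 23 genes with almost no reads outside severe and control 8 h, 1 point per library, by time in h on the x axis, for severe hypoxia, moderate hypoxia and control. The severe 8 h libraries lie between 49.1 and 68.9 RPKM, control 8 h replicate 3 at 36.6 RPKM and severe 4 h replicate 1 at 28.8 RPKM.

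Beside control at 8 h, moderate hypoxia stood close to control at the median of the genes that separate the 2 hypoxia levels. For the higher genes the median log2 difference was 1.56 for severe against moderate hypoxia, 1.60 for severe hypoxia against control and 0.10 for moderate hypoxia against control. For the lower genes these medians were -1.07, -1.11 and -0.06. The quartiles of moderate hypoxia against control were -0.16 and 0.35 for the higher genes and -0.26 and 0.12 for the lower genes. Over all genes tested they were -0.34 and 0.34. Single genes stood further off, such as c78658_g1 below control (-1.28) and c90727_g2 above it (1.03), though neither was called. The 3 differences share libraries, so they describe levels and are not separate evidence.

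The same genes were then read at the other times, from libraries that do not enter the means compared at 8 h. Those libraries do share the pooled spread behind the 8 h calls, so calls at different times are not fully independent. At 0 h the higher genes had a median severe-minus-moderate difference of 0.11 and the lower genes one of -0.11, against -0.04 over all genes, and a single gene of the 2656 (0.0377%) was called, c78658_g1. At 4 h the medians were 0.75 for the higher and -0.55 for the lower genes, against -0.04 over all genes. At that time 4.07% of all genes were called; 231 of the 247 higher genes were above 0 and 71 were called higher, where 3.43% of all genes were, and 108 of the 116 lower genes were below 0 and 11 were called lower, where 0.64% were.

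At 12 h the differences were of similar size to those at 8 h. The median was 1.34 for the higher genes and -0.88 for the lower genes, against 0.08 over all genes. Calls were frequent at that time, at 40.3% of all genes. Of the higher genes 178 were called higher again, where 25.8% of all genes were, and of the lower genes 73 were called lower again, where 14.5% were. At 24 h the median was 0.71 for the higher genes and -0.11 for the lower genes, against 0.17 over all genes. By then 90 of the higher genes (36.4%) were called higher, where 15% of all genes were. Of the lower genes 6 (5.17%) were called lower, where 3.12% of all genes were. Without the 23 nearly silent genes the higher set had medians of 0.16, 0.88, 1.43 and 0.79 at 0, 4, 12 and 24 h. Of the 247 higher genes 25 (10.1%, against 0.979% of all genes) were called higher at 4, 12 and 24 h alike and 52 (21.1%, against 68.2%) at none of these times. Of the 116 lower genes 0 were called lower at all 3 times by limma, 0 by voom and 1 at an unadjusted p under 0.05. Over all 2656 genes tested these counts were also low, at 0, 0 and 4. Of the lower genes 39 (33.6%, against 83.9% of all genes) were called lower at none of these times.

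**Figure D4:**
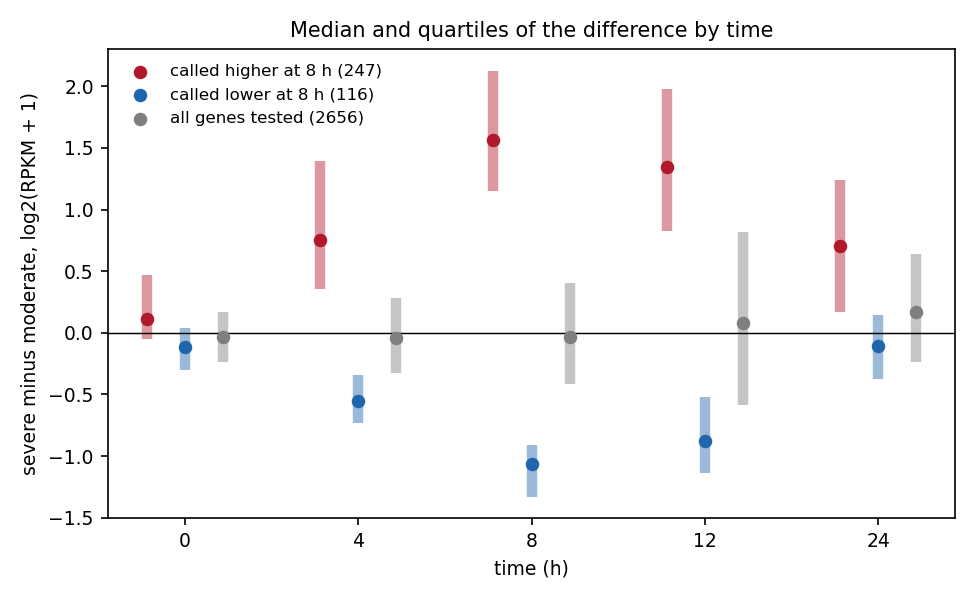
Severe minus moderate difference in log2(RPKM + 1) at 0, 4, 8, 12 and 24 h: points are medians and bars run between the quartiles of the genes, for the 247 genes called higher at 8 h (red), the 116 called lower at 8 h (blue) and all 2656 tested (grey). The 8 h values chose the genes and are shown for orientation; at the other times the red medians are 0.11, 0.75, 1.34 and 0.71.

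Between 12 and 24 h the averages of both sets moved more in moderate than in severe hypoxia. The higher genes averaged 2.07, 2.70, 3.44, 3.09 and 3.06 in severe hypoxia at 0, 4, 8, 12 and 24 h, as mean log2(RPKM + 1) over genes and libraries. In moderate hypoxia they averaged 1.85, 1.73, 1.70, 1.65 and 2.26, and in control 1.69, 1.69, 1.61, 1.51 and 1.61. Severe hypoxia was thus highest at 8 h, the time that chose the genes, and moderate hypoxia was highest at 24 h. The lower genes averaged 2.95, 2.54, 2.11, 2.19 and 2.44 in severe hypoxia, 3.06, 3.09, 3.26, 3.05 and 2.62 in moderate hypoxia, and 3.12, 3.11, 3.25, 3.29 and 3.13 in control. At 24 h the moderate value was the lowest of its own course.

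**Figure D5:**
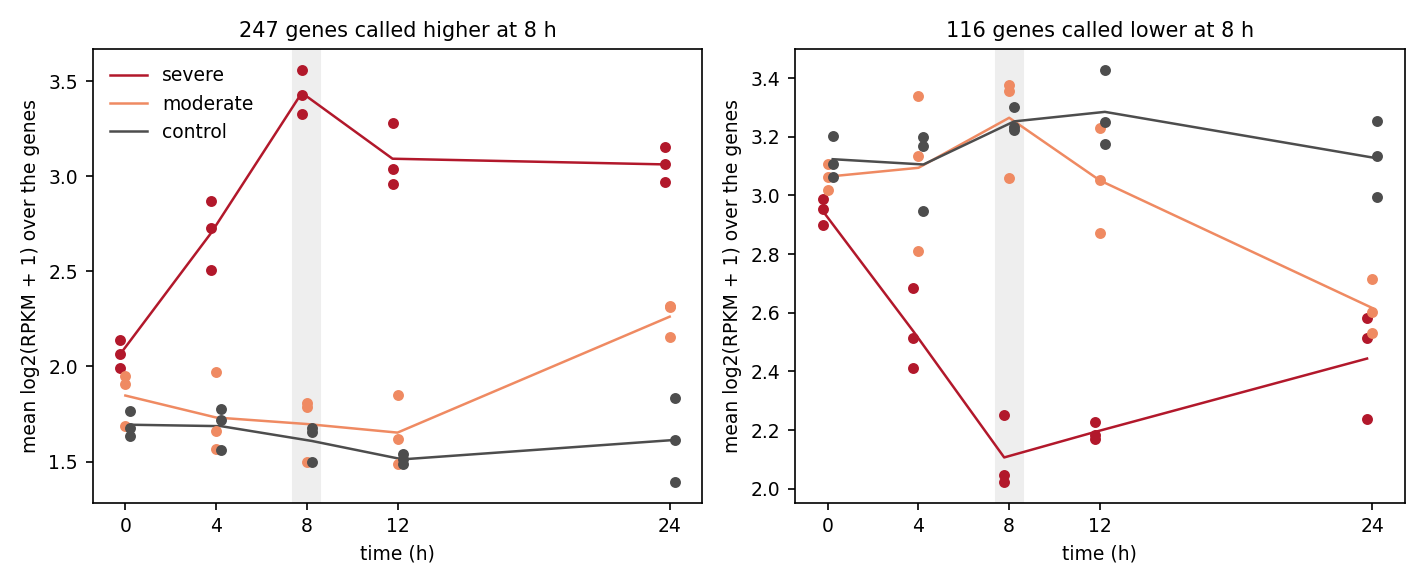
Level, as mean log2(RPKM + 1), over the 247 genes called higher (left) and the 116 called lower (right) at 8 h, 1 point per library and a line through the group means, over time in h for severe hypoxia, moderate hypoxia and control; the 8 h libraries that chose the genes are shaded. In the lower set the moderate line ends at 2.62, near the severe 2.44.

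Whether the difference at 8 h was another one than at a second time was tested gene by gene with interaction contrasts in the same limma model. Against 0 h, 103 genes (3.88%) differed, 85 (3.2%) with a higher and 18 (0.678%) with a lower difference at 8 h. Among the 103 were 83 genes of the higher and 15 of the lower set, which hold 9.3% and 4.37% of all genes tested. The interaction contains the 8 h difference that chose the sets, so this overlap largely follows from the choice and is no separate result. Without the 23 nearly silent genes, all of them among the 103, 62 genes had a higher difference and 60 were of the higher set. The largest of the higher ones was c84833_g1, with an interaction of 6.73 (SE 1.28, limma adjusted p = 0.000991), which voom did not call. At 0 h it had 0.717, 0.786 and 0.147 RPKM in severe and 1.41, 0.104 and 0.0636 RPKM in moderate hypoxia. The groups thus overlapped before the rise. The gene was also called higher at 4, 12 and 24 h, by 5.46, 5.80 and 5.11 (limma adjusted p = 0.000191, 1.36e-05 and 0.000319). Its difference at 8 h was not called different from the one at 4, 12 or 24 h.

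The other named gene of that contrast in the same direction was c78926_g1 (2933 bp). At 8 h it stood at 274, 66.5 and 9.34 RPKM in severe hypoxia, against 2.79, 0.254 and 1.05 RPKM in moderate hypoxia. At 0 h it stood at 5.19, 2.87 and 3.68 RPKM in severe hypoxia, against 1.77, 2.20 and 1.62 RPKM in moderate hypoxia. The gene was also called higher at 4, 12 and 24 h, by 3.52, 4.08 and 3.00 (limma adjusted p = 0.00782, 0.000288 and 0.00962). Its severe libraries at 8 h stood in the same order as those of c84833_g1, with replicate 1 highest. The severe libraries of both genes also shared their order at 4, 12 and 24 h, with replicate 2 highest at 24 h. Counting c84833_g1 itself, 3 of the 247 higher genes and 9 of the 2656 genes tested shared its order at all 4 times. The interaction of c78926_g1 was 4.00 (SE 1.16, limma adjusted p = 0.0395), and of the 12 fits that left out 1 library it was called only without moderate 8 h replicate 1 (adjusted p = 0.0331) and without severe 8 h replicate 3 (adjusted p = 0.00229).

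In the opposite direction, c88533_g3 (1732 bp), an abundant gene, had 150, 102 and 121 RPKM in severe hypoxia at 8 h, against 447, 396 and 415 RPKM in moderate hypoxia. Control libraries at 8 h had 318, 147 and 244 RPKM. Against control the log2 difference was -0.87 for severe and 0.89 for moderate hypoxia, neither called (limma adjusted p = 0.0785 and 0.275). At 0 h c88533_g3 had 305, 421 and 280 RPKM in severe hypoxia and 283, 345 and 146 RPKM in moderate hypoxia, with overlapping groups. The interaction was -2.20 (SE 0.57, limma adjusted p = 0.0166), and it was not called without moderate 0 h replicate 3 (-1.84, adjusted p = 0.0797) or severe 0 h replicate 2 (-2.03, adjusted p = 0.0546). For c90727_g2 (1756 bp) the interaction was -1.79 (SE 0.44, limma adjusted p = 0.0122). It had 1.34, 1.92 and 1.99 RPKM in severe hypoxia at 8 h, against 3.89, 5.50 and 6.12 RPKM in moderate hypoxia and 3.09, 1.52 and 1.58 RPKM in control. At 0 h it had 5.85, 5.48 and 3.44 RPKM in severe hypoxia, against 2.02, 3.77 and 2.63 RPKM in moderate hypoxia. The severe libraries averaged below the moderate ones at 8 h and above them at 0 h, where the difference was 0.64 and not called (limma adjusted p = 1). At 8 h the moderate libraries lay above all control libraries, by 1.03, which was not called (limma adjusted p = 0.133).

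Against 4 h, 24 genes (0.904%) had a higher difference at 8 h, and 146 genes had an unadjusted p under 0.05 in either direction. Of the 24, 17 belonged to the 23 nearly silent genes, which leaves 7. One of them was c81192_g1 (2471 bp), at 11.4, 6.87 and 10.6 RPKM in severe hypoxia at 8 h, against 0.153, 0.498 and 1.60 RPKM in moderate hypoxia. At 4 h it had 0.292, 0.781 and 0.173 RPKM in severe hypoxia and 1.09, 0.644 and 1.62 RPKM in moderate hypoxia. The higher level in severe hypoxia was thus seen at 8 h and not at 4 h, and the interaction was 3.24 (SE 0.59, limma adjusted p = 0.00106). The other named gene, c92117_g1 (1372 bp), had 34.1, 9.11 and 19.3 RPKM in severe hypoxia at 8 h, against 0.413, 0.708 and 0.139 RPKM in moderate hypoxia. Its interaction was 3.28 (SE 0.81, limma adjusted p = 0.0331), with an adjusted p between 0.00531 and 0.225 over the 12 fits that left out 1 library. It was not called in 7 of them, without moderate 4 h replicate 1, moderate 8 h replicates 1 or 3, severe 4 h replicates 1 or 2, or severe 8 h replicates 1 or 3.

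From 8 h to 12 h, 44 genes (1.66%) changed their difference, 13 (0.489%) toward severe hypoxia and 31 (1.17%) away from it. Of the 31, 23 were the nearly silent genes, and without them 8 remain. Among genes averaging 2 RPKM or more, 9 moved toward severe hypoxia and 4 away from it. Among the 31, the largest with at least 5 RPKM in the highest group was c54745_g1 (467 bp). It is 1 of the 23 nearly silent genes. It had 6.23, 5.19 and 6.88 RPKM in severe hypoxia at 8 h and was at 0 in all 3 moderate libraries at 8 h. At 12 h it was at 0 in all severe and moderate libraries. Severe replicate 1 at 4 h, with 13.9 RPKM, stood above every library at 8 h, and control replicate 3 at 8 h had 3.01 RPKM. Its severe mean at 8 h was at least 29.8-fold above moderate hypoxia, against 3 reads per library. The call between 8 and 12 h (limma adjusted p = 0.0223) was lost without moderate 12 h replicate 2 (0.0508), moderate 12 h replicate 3 (0.054) or severe 8 h replicate 1 (0.0612), by adjusted p in limma. Of a different kind was c79574_g2 (849 bp), with 27.9, 9.79 and 5.68 RPKM in severe hypoxia and 0.111, 0.0763 and 0.638 RPKM in moderate hypoxia at 8 h. At 12 h it had 1.30, 0.966 and 1.57 RPKM in severe hypoxia, against 0.112, 0.407 and 0.585 RPKM in moderate hypoxia. The interaction was -2.61 (SE 0.59, limma adjusted p = 0.00748), and it was not called without severe 8 h replicate 1 (-2.02, adjusted p = 0.0674).

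Toward severe hypoxia, c89090_g7 (4175 bp) was not different at 8 h, with 0.976, 1.24 and 2.26 RPKM in severe and 2.56, 1.85 and 1.66 RPKM in moderate hypoxia (log2 difference -0.30, limma adjusted p = 0.543). At 12 h its severe libraries had 3.65, 5.88 and 7.14 RPKM, all above the 0.813, 1.15 and 0.320 RPKM of the moderate libraries. The interaction was 2.19 (SE 0.40, limma adjusted p = 0.000718). The interaction of c85742_g4 (1450 bp) was 2.45 (SE 0.59, limma adjusted p = 0.0165), from 14.8, 11.9 and 7.56 RPKM in severe and 3.24, 2.90 and 2.50 RPKM in moderate hypoxia at 12 h. At 8 h its groups overlapped, at 3.61, 3.05 and 6.76 RPKM in severe and 7.81, 12.2 and 5.72 RPKM in moderate hypoxia. Its adjusted p ran from 0.00678 to 0.0652 over the 12 fits that left out 1 library, and it was not called without moderate 8 h replicate 2, moderate 12 h replicate 3, severe 8 h replicates 1 or 2, or severe 12 h replicate 1.

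From 8 h to 24 h, 139 genes (5.23%) changed their difference, 85 (3.2%) toward severe hypoxia and 54 (2.03%) away from it. The order of these counts depended on the processing: quantile normalization gave 54 toward and 74 away from severe hypoxia, and fitting the compared groups by themselves gave 49 and 53. Of the 139 genes, 45 were in the higher and 24 in the lower set of 8 h. The 8 h difference that chose these sets is part of this interaction too, so the overlap is no separate result. The 23 nearly silent genes were among both the 54 and the 45, and without them 31 genes moved away from severe hypoxia and 22 were of the higher set. The level of c78658_g1 at 24 h was 351, 193 and 158 RPKM in severe hypoxia, against 89.5, 103 and 134 RPKM in moderate hypoxia. All 3 severe libraries were below, and all 3 moderate libraries above, those of their own level at 8 h, and the interaction was -3.96 (SE 0.61, limma adjusted p = 0.00014). For c84766_g3 (5577 bp) it was 3.11 (SE 0.77, limma adjusted p = 0.013). That gene had 2.22, 1.35 and 2.33 RPKM in severe hypoxia at 8 h, against 17.1, 12.9 and 7.48 RPKM in moderate hypoxia. At 24 h it had 6.41, 7.20 and 4.19 RPKM in severe hypoxia, against 2.16, 2.05 and 3.32 RPKM in moderate hypoxia, so the order of the groups had turned round while its difference at 24 h was not called (limma adjusted p = 0.214).

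The named fall c90267_g12 also belonged to this group. At 24 h it had 4.96, 3.63 and 0.898 RPKM in severe hypoxia and 1.80, 1.18 and 0.760 RPKM in moderate hypoxia, with overlapping groups. Its interaction was 3.31 (SE 0.90, limma adjusted p = 0.0236), not called without moderate 8 h replicate 2, moderate 24 h replicate 3, severe 8 h replicate 2, or severe 24 h replicates 1 or 2 (adjusted p up to 0.0839). The last named gene, c73830_g1 (1765 bp), had 113, 161 and 70.4 RPKM in severe hypoxia at 8 h, against 8.54, 1.56 and 94.0 RPKM in moderate hypoxia. Moderate replicate 3 lay inside the severe range, far above the other 2. At 24 h the levels were 14.6, 24.3 and 33.9 RPKM in severe hypoxia and 37.6, 36.3 and 67.8 RPKM in moderate hypoxia. The interaction was -4.00 (SE 1.20, limma adjusted p = 0.0441). Of the 12 fits that left out 1 library, it was called only without moderate 8 h replicate 3 (-5.42, adjusted p = 0.00165), severe 8 h replicate 3 (adjusted p = 0.0327) and severe 24 h replicate 3 (adjusted p = 0.0466).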

How the data were processed

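RNA of 45 liver libraries was sequenced as paired-end reads and assembled with Trinity by the authors, per the labels' protocols. The deposited tables name no unit, and their values were read as RPKM computed by the authors, since a common set of gene lengths and read totals made whole reads of every one of the 117443 values above 0 (tolerance 0.01, largest distance 6.23e-05). The recovered lengths lay between 204 and 29856 bp (median 2584 bp). The sources used here do not name the aligner, the counter or the rule for listing genes. The design foresaw a count test for counts, and with normalized values limma was used on log2(RPKM + 1).

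A gene was kept where 3 or more libraries had 1 RPKM or more. One limma 3.58.1 model (R 4.3.3) with 15 group means and an intensity trend was fitted to all 45 libraries, and Benjamini-Hochberg adjusted p under 0.05 was called. Interaction contrasts compared severe minus moderate at 8 h with each other time. Named are, for severe against moderate at 8 h, the 2 largest rises and 2 largest falls among called genes with no overlap and at least 5 RPKM in the higher group, and for each interaction up to 2 each way among called genes with at least 5 RPKM in the highest group. The comparison, lists and rules were chosen with earlier results of these data known. Alternatives were another pseudocount, filter, normalization, voom on the recovered reads, no intensity trend, a replicate block, only the compared groups, a 2-fold minimum and leaving out each library. The procedures were tested on simulated data. No other per-sample columns were present.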

Additional observations from a re-analysis of the deposited data

Results flagged for a closer look

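The severe-minus-moderate difference at 8 h was not the same as at the other times for part of the genes, by a test of the interaction itself in limma. This held for 103 genes against 0 h, 24 against 4 h, 44 between 8 and 12 h and 139 between 8 and 24 h. Of the 24, 17 were nearly silent genes picked after their values were seen. All 23 such genes were among the 103, the 44 and the 139. The pick allowed them reads in at most 4 of the 39 libraries other than severe and control at 8 h. Their interaction calls therefore largely restate the 8 h values and are no separate result.

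Each named gene of these tests was picked out by its own interaction. Against 0 h the log2 interactions were 6.73 for c84833_g1, 4.00 for c78926_g1, -2.20 for c88533_g3 and -1.79 for c90727_g2. Against 4 h they were 3.28 for c92117_g1 and 3.24 for c81192_g1. Of 12 h minus 8 h they were 2.45 for c85742_g4, 2.19 for c89090_g7, -2.82 for c54745_g1 and -2.61 for c79574_g2. Of 24 h minus 8 h they were 3.31 for c90267_g12, 3.11 for c84766_g3, -4.00 for c73830_g1 and -3.96 for c78658_g1. The value of c54745_g1, which is at 0 in most groups, is set by the pseudocount and is no bound.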

How the results depend on the processing

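No named gene changed the sign of its difference under the alternatives run. The genes were named for large differences, and several alternatives leave the difference as it is, so an unchanged sign was largely given. The medians over the 8 h sets also kept their signs. They were rerun only with quantile normalization, with a pseudocount of 0.1 and with 1 library at 8 h left out. The split of the interaction counts did turn: between 8 and 24 h from 85 higher and 54 lower to 54 and 74 with quantile normalization and to 49 and 53 with only the compared groups, and between 8 and 12 h from 13 and 31 to 9 and 4 with a mean of at least 2 RPKM. None of the counts at 8 h moved by more than 1.5 times with a pseudocount of 0.1, without the filter, without the intensity trend or with voom (227 higher and 103 lower). No pairing by replicate number was seen at 8 h: deviations of same-numbered severe and moderate libraries correlated at -0.06, -0.07 and -0.03. Differently numbered ones correlated at -0.15 to 0.18. With so few libraries these values cannot exclude a pairing. A fit with the replicate number as a block called 243 higher and 115 lower genes at 8 h. With a mean of at least 2 RPKM, 162 genes were higher at 8 h, and the interactions of 8 h with 0, 4, 12 and 24 h counted 50, 1, 13 and 80 genes. Quantile normalization called 187 lower genes, moved the median of all genes from 0.17 to -0.01 at 24 h and from 0.08 to -0.04 at 12 h, and gave the higher set 0.45 at 24 h. With only the compared groups, 161 genes (119 higher, 42 lower) were called at 8 h and the interactions gave 58 (0 h), 15 (4 h) and 28 (12 h). A 2-fold minimum on the log2(RPKM + 1) scale left 68 lower genes. Voom gave interactions of 58 (0 h) and 9 (4 h), and a pseudocount of 0.1 gave 15 (4 h). That pseudocount raised the medians of the higher set at 4, 12 and 24 h to 1.19, 1.86 and 0.93, and put the lower set at -1.15 at 12 h. Without the 23 nearly silent genes, an alternative chosen after seeing the data, 7 (4 h) and 21 (12 h) interactions remained in the count.

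Leaving out 1 library gave 226 to 381 calls at 8 h, 164 to 232 higher and 56 to 149 lower. The interactions counted 68 (without severe 0 h replicate 3) to 139 at 0 h, 18 to 27 at 4 h, 31 to 115 (without severe 8 h replicate 3) at 12 h, with 82 without severe 12 h replicate 3, and 74 (without severe 8 h replicate 2) to 202 at 24 h. The last count fell to 89 when moderate 8 h replicate 1 was left out, to 85 for moderate 24 h replicate 1 and to 78 for severe 8 h replicate 1. For the medians of the sets at other times, only the 6 libraries at 8 h were left out in turn. This changes which genes form a set, while the libraries of the other times all stayed in. For the higher set the medians ran over 0.08 to 0.14, 0.63 to 1.06, 1.27 to 1.41 and 0.54 to 0.78 at 0, 4, 12 and 24 h. For the lower set they ran over -0.17 to -0.05, -0.58 to -0.51, -0.92 to -0.71 and -0.12 to -0.07. The cause of these shifts was not tested. In voom, c90267_g12 was not called at 8 h (adjusted p = 0.0511), and neither were the interactions of c84833_g1 (0.19), c78926_g1 (0.196), c92117_g1 (0.688), c54745_g1 (0.0852), c79574_g2 (0.271) and c90267_g12 (0.113). By adjusted p, interaction calls were also lost with a pseudocount of 0.1 (c92117_g1 0.27, c79574_g2 0.11, c73830_g1 0.0553), with a mean of at least 2 RPKM (c78926_g1 0.0582, c92117_g1 0.186, c73830_g1 0.054), with quantile normalization (c78926_g1 0.0595) and with only the compared groups (c78926_g1 0.111, c92117_g1 0.253, c79574_g2 0.0726, c73830_g1 0.0975). Depth of the lowest genes limits what the log2(RPKM + 1) scale can show.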
